A study of Mus musculus with 12 samples.

Results

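The genes described here are 10 cell surface genes that lymphocytes switch on or off with activation, namely Tnfrsf8, Tnfrsf9, Tnfrsf1a, Tnfrsf1b, Fas, Cd83, Cd69, Il2ra, Cd44 and Cd70. They were found by their Ensembl identifiers among the 55536 features of the count table. The members were selected on earlier results of these data, and Tnfrsf8 was singled out for an effect of Pdap1 loss that looked unlike in the cultures, so its genotype values are a description from which nothing is read, also where it is one of the members counted. RNA-seq was measured in splenic B cells of C57BL/6 mice, 3 controls and 3 Pdap1-deficient mice, and cells of every mouse were kept for 48 h in a pair of cultures. One held LPS with IL-4, which directs class switching to IgG1, and the other LPS with BAFF and TGFb, which directs it to IgG2b. This gives 12 libraries in 4 groups of 3 mice. Both genotypes carried the same Cre allele. In the Pdap1-deficient mice (PDAP1 KO in the labels) Pdap1 was also flanked by loxP sites on both alleles, so that the Cre deletes it in cells of the B lineage from early stages on. No unstimulated cells are among the 12 libraries, so that "higher" and "lower" always refer to the other culture or the other genotype. The labels also name the CH12 lymphoma line for every sample, whereas the titles, the strain and the description of the series are those of primary mouse cells.

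Tnfrsf8 (CD30), Tnfrsf9 (4-1BB), Tnfrsf1a (TNFR1), Tnfrsf1b (TNFR2) and Fas are receptors of the TNF receptor superfamily, which bind trimeric ligands and signal through TRAF adaptors to NF-kB or, where the tail holds a death domain as in TNFR1 and Fas, through FADD to caspase-8. Cd70 is a ligand of the same system and binds CD27. The other members are common activation markers of lymphocytes. Il2ra (CD25) is the high-affinity chain of the IL-2 receptor, Cd69 holds S1PR1 inside the cell and thereby keeps activated lymphocytes in the tissue, Cd83 stabilises MHC class II and CD86 at the surface, and Cd44 is the receptor for hyaluronan.

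Library totals were between 4579793 and 69500640 counts. The deepest library was that of control mouse 1 with LPS-BAFF-TGFb. Pdap1 itself was at 91.4 to 97.8 CPM (counts scaled to a fixed library size) in the controls and 23.3 to 29.9 in the deficient libraries with LPS-IL-4. With LPS-BAFF-TGFb it was at 80.3 to 198.8 and 23.0 to 26.4 CPM, so every library went with its label. In edgeR's quasi-likelihood test Pdap1 was called with LPS-IL-4, at a log2 fold change of -1.82 (adjusted p = 3.52e-05). With LPS-BAFF-TGFb it was not, at -2.33 (SE 0.36, adjusted p = 0.0929), so a gene not called there may still differ. B cell markers were high in all 12 libraries, with 8 of 8 above 0 in each and a summed level between 2529 and 3706 CPM. The sums of other marker lists moved with the groups. The 6 plasma cell markers summed to 622.3 to 673.8 CPM in control and 747.5 to 891.9 CPM in deficient libraries with LPS-IL-4, which did not overlap, and to 449.5 to 527.4 and 475.1 to 527.3 CPM under LPS-BAFF-TGFb, which did. Prdm1, the plasma cell factor Blimp-1, was at 14.1 to 19.98 CPM in control and 50.6 to 71.2 CPM in deficient libraries with LPS-IL-4. The markers did not all go this way in that culture. Irf4 was higher too, at 287.1 to 308.9 and 321.6 to 399.7 CPM. Sdc1 was lower in the deficient libraries, at 6.42 to 9.90 and 3.95 to 5.84 CPM. Jchain, at 10.8 to 24.4 and 6.38 to 47.6 CPM, and Xbp1 overlapped, and Tnfrsf17 had at most 4 counts. Most of the sum came from Xbp1 and Irf4. The 6 dendritic cell markers summed to 25.2 to 37.8 CPM over the 6 libraries with LPS-IL-4, and to 126.3 to 144.8 CPM in control and 76.4 to 112.5 CPM in deficient libraries with LPS-BAFF-TGFb, with 1 or 2 of them at 0 in each library. In the latter culture most of the sum was Flt3, at 112.9 to 130.3 CPM in control and 62.6 to 96.4 CPM in deficient libraries. Zbtb46 was at 7.06 to 11.7 CPM over the 12 libraries. Xcr1, Siglech and Ccr9 stayed at or below 5.41 CPM, and Clec9a had no count. The sexes were not balanced between the genotypes. Xist, transcribed from the inactive X chromosome, was at 718.1 to 1261 CPM in control mice 1 and 3 and deficient mouse 1, and Ddx3y, on the Y chromosome, at 182.1 to 267.2 CPM in control mouse 2 and deficient mice 2 and 3. The part of other cells and of sex in the members' levels was not tested.

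Pdap1-deficient mouse 2 stood apart in both cultures. Its 10 myeloid markers summed to 329.95 CPM in the first culture and 559.9 CPM in the second. The other libraries were between 5.22 and 38.5 CPM in the first and between 11.8 and 81.0 CPM in the second, in each case with Pdap1-deficient mouse 3 as the highest of them. The 13 T cell markers summed to 43.8 CPM with LPS-IL-4 and 16.1 CPM under LPS-BAFF-TGFb in deficient mouse 2, with none at 0, against 11.6 to 35.0 and 2.55 to 9.74 CPM in the other libraries. They did not all go this way, since Thy1 was at 7.42 CPM in deficient mouse 2 with LPS-IL-4 and 16.4 to 19.7 CPM in the controls. Values of members that rest on this mouse are given with and without it below.

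Reference promoters are shown for the member with the widest difference between the cultures (Tnfrsf8), for Il2ra, which was lower in the same culture, and for Fas, which went the other way. They are the 250 bases before the annotated RefSeq start on GRCm38.p6, in the direction of the gene, at chr4:145315165-145315414 on the minus strand for Tnfrsf8, chr2:11642542-11642791 on the plus strand for Il2ra and chr19:34290409-34290658 on the plus strand for Fas. Capitals mark matches to the AP-1 motif TGANTCA.
Tnfrsf8: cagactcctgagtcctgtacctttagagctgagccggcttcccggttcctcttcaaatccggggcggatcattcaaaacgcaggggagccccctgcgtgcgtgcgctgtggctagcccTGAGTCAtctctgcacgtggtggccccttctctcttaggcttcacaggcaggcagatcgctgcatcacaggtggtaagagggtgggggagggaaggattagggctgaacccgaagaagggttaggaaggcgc
Il2ra: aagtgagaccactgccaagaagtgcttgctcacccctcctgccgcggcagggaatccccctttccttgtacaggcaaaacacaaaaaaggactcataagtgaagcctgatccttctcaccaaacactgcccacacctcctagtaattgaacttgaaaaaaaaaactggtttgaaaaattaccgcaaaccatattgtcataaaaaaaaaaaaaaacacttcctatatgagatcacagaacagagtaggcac
Fas: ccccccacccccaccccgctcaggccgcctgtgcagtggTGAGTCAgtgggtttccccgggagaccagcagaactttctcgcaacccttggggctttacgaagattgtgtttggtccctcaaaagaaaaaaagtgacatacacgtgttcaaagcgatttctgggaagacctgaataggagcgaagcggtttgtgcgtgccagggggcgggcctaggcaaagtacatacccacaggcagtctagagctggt
Of the 10 members, 7 had a window in the RefSeq table, with 8 windows in all since Tnfrsf9 has a pair of starts. Cd69, Cd83 and Cd70 are named only. Windows of 300 bases, which also take in 50 bases after the start, were searched on both strands for 7 motifs. The AP-1 motif was found in those of Tnfrsf8, Fas and one of Tnfrsf9, and in 7.81% of all 32851 windows. The STAT6 motif, TTC and GAA with 4 bases between them, was found in that of Cd44, and in 6.95% of all windows. The NF-kB motif GGGNNTTTC was found in one window of Tnfrsf9, against 4.36% of all windows. The other NF-kB motif, GGGANNTTC (3.94% of all windows), the Smad motif GTCTAGAC (0.213%) and the Atf4 composite motif TGATGNAA (3.97%) had no match in a member's window. The E-box CANNTG, in 72.3% of all windows, was found in those of Fas, Tnfrsf1b, Tnfrsf8 and both of Tnfrsf9. No motif overlapped another in the windows printed. The matches are matches of letters and were not tested for binding. Only these exact strings were searched, so a window without a match may still hold another form of such a site, also for NF-kB.

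Abundance differed widely among the members. Per kilobase of exon, Cd83 was the most abundant of the 10 in the control cells with LPS-IL-4, at 250.3 ± 8.26 CPM per kilobase (SD, n = 3), followed by Cd44 at 55.5 ± 3.88, Cd69 at 35.7 ± 0.936, Tnfrsf8 at 25.3 ± 1.55 and Tnfrsf1b at 15.4 ± 1.49. Fas at 4.62 ± 0.423 and Il2ra at 4.53 ± 0.674 CPM per kilobase did not differ beyond their spread. Tnfrsf9 and Tnfrsf1a, at 0.0757 ± 0.0809 and 0.0676 ± 0.117, did not either, and Cd70 had no count. With LPS-BAFF-TGFb the order in control cells was Cd83 at 122 ± 4.81 CPM per kilobase, Cd44 at 47.4 ± 0.249, Cd69 at 17.9 ± 3.81, Fas at 12.3 ± 1.87, Tnfrsf1b at 5.91 ± 0.582, Il2ra at 0.749 ± 0.153, Cd70 at 0.421 ± 0.146, Tnfrsf8 at 0.1495 ± 0.0698, Tnfrsf9 at 0.0986 ± 0.0475 and Tnfrsf1a at 0.0238 ± 0.0235. Tnfrsf8 thus stood among the more abundant members in one culture and among the 3 least abundant in the other, where its spread overlapped that of Tnfrsf9.

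**Figure D1:**
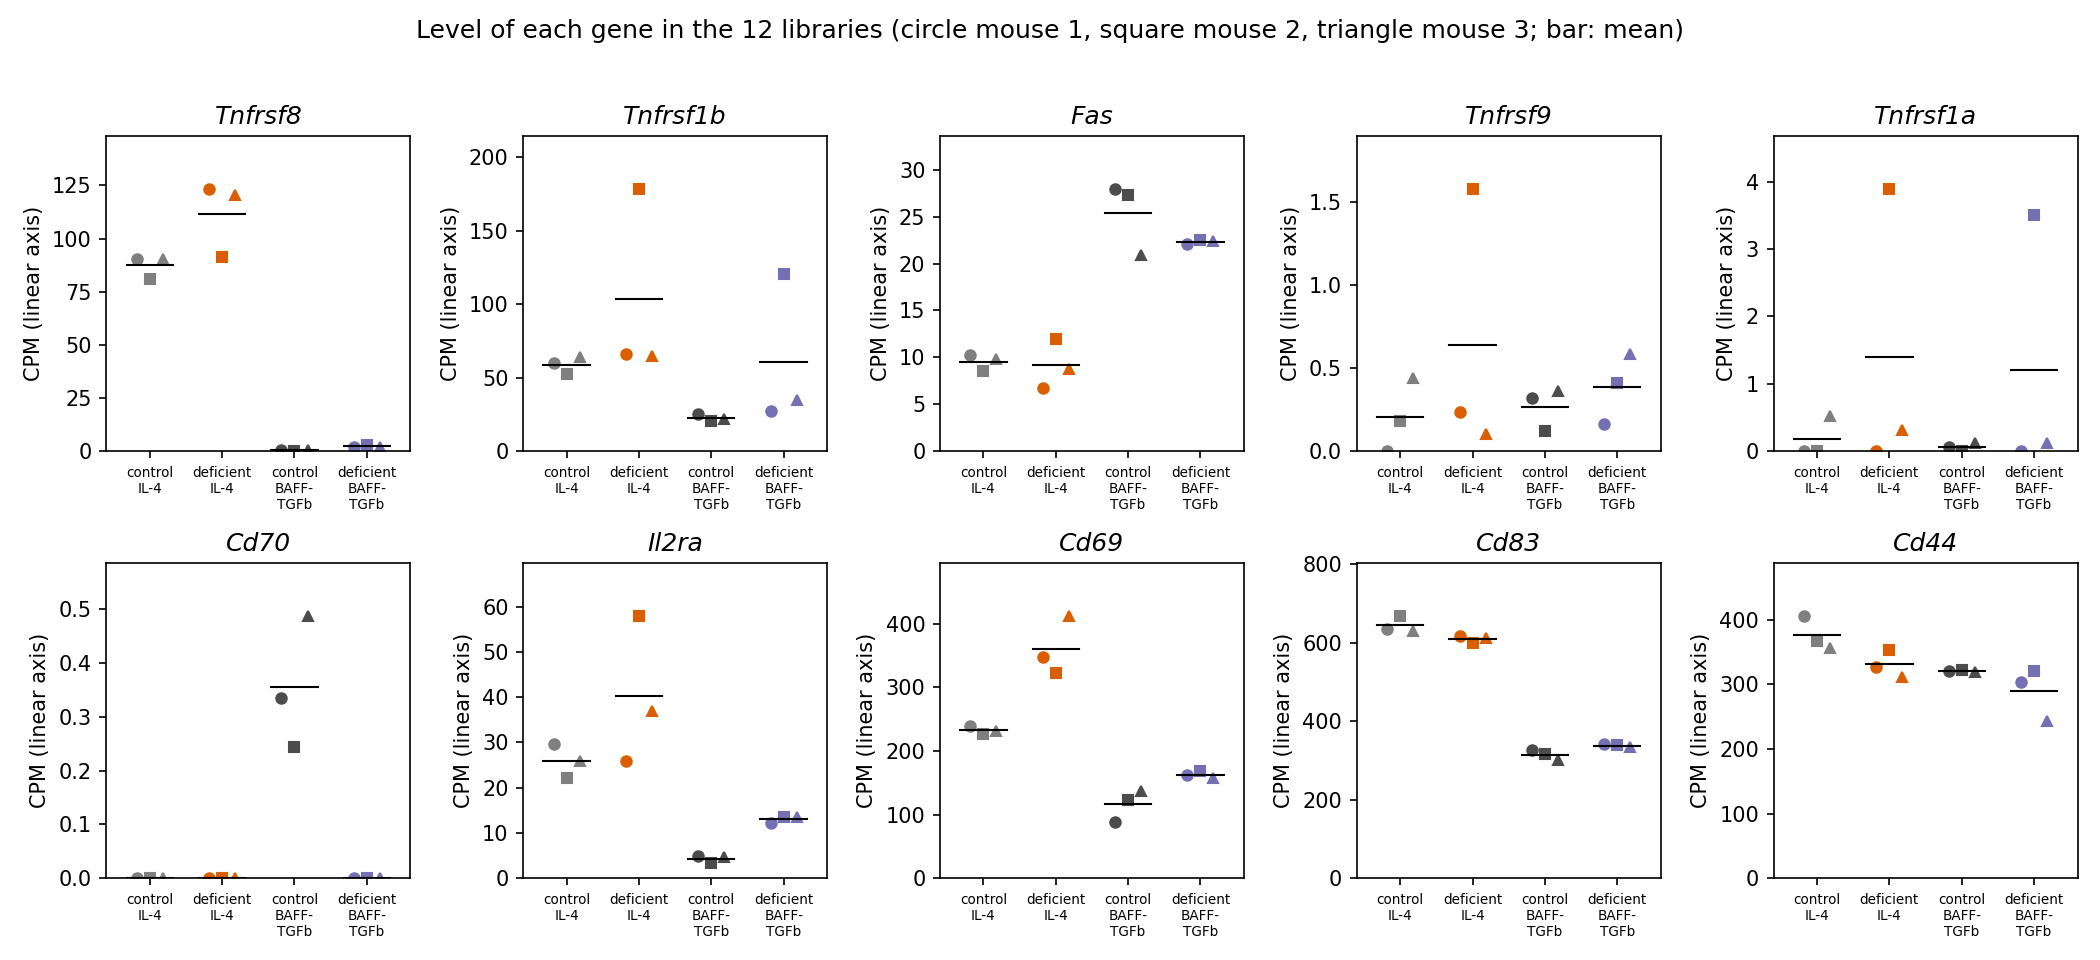
CPM of the 10 genes in each of the 12 libraries, on a linear axis from 0 for each gene, with a symbol per mouse and a bar at the group mean. Tnfrsf8, Il2ra, Cd69 and Cd83 lie lower with LPS-BAFF-TGFb than with LPS-IL-4 in both genotypes, Fas lies higher, and Tnfrsf1b and Tnfrsf1a are highest in the libraries of Pdap1-deficient mouse 2.

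The first comparison asks how the choice of cytokines with LPS sets these genes. Tnfrsf8, Il2ra, Cd69 and Cd83 were lower with LPS-BAFF-TGFb than with LPS-IL-4 in both genotypes, and Fas was higher. Of the 10 members 7 passed the filter on low counts, and edgeR's quasi-likelihood test over the 12 libraries, with Benjamini-Hochberg adjustment over all 15794 genes tested, called 4 of them lower and 1 higher in control cells. Among all genes 8.22% were called lower, 9.93% higher and 18.2% in either direction. In Pdap1-deficient cells 4 members were called lower and 1 higher too, against 6.93%, 6.64% and 13.6% of all genes. The median log2 fold change of the 7 members was -1.03 in control and -0.85 in deficient cells, beside 0.03 and -0.004 over all genes. As the members were selected on earlier results of these data, nothing is read from these counts and medians for the members as a set. Both cultures came from the same mice, and in a fit with the mouse as a block Tnfrsf1b was called as well in each genotype. The shares of all genes given here are those of the fit without the block. In bulk RNA a smaller number of cells that express a gene and less RNA of it per cell cannot be told apart.

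**Figure D2:**
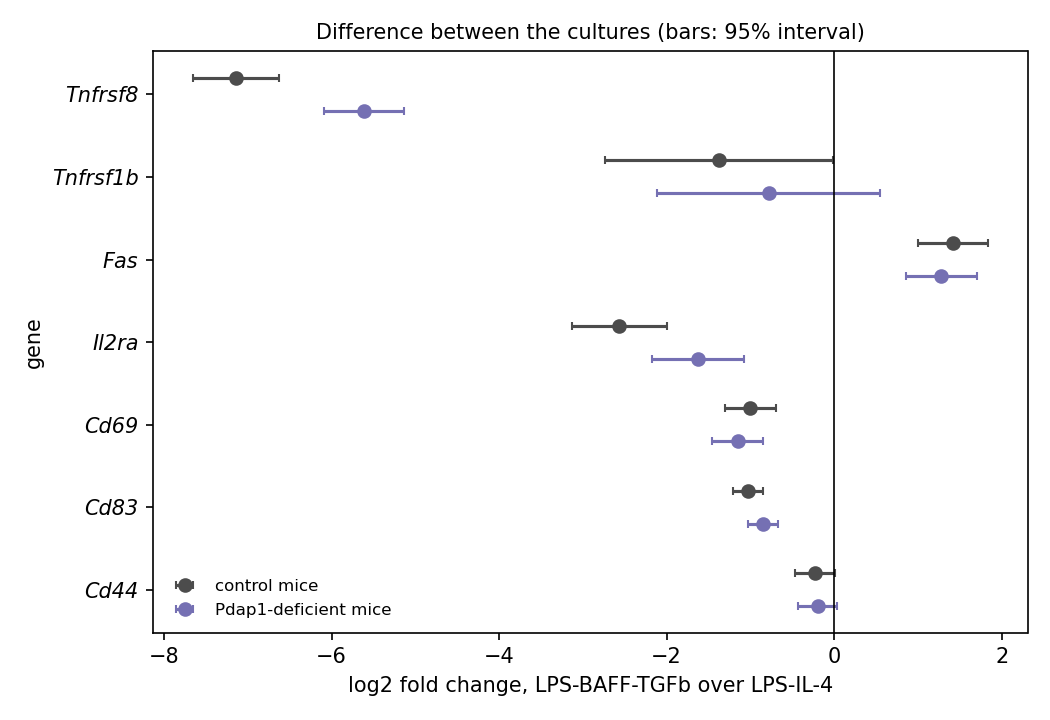
Log2 fold change of the 7 tested members, LPS-BAFF-TGFb over LPS-IL-4, from the fit over 12 libraries, with 95% intervals as bars, in control and in Pdap1-deficient mice. Tnfrsf8 is farthest to the left in both genotypes (-7.14 and -5.61), Fas alone lies on the right (1.42 and 1.28), and the interval of Cd44 spans 0 in both.

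Tnfrsf8 (ENSMUSG00000028602, chr4:145267137-145315164 on the minus strand) encodes CD30, a costimulatory receptor of activated lymphocytes and a marker of Hodgkin lymphoma cells. With LPS-IL-4 it was at 90.4, 81.2 and 90.5 CPM in control mice 1 to 3 and at 123.4, 91.2 and 120.5 CPM in deficient mice 1 to 3. With LPS-BAFF-TGFb it was at 0.699, 0.243 and 0.609 CPM in the controls and at 2.10, 3.10 and 1.88 CPM in the deficient cells. The cultures did not overlap in either genotype, and within each culture every deficient library lay above every control library. The mean level with LPS-IL-4 was 169-fold that with LPS-BAFF-TGFb in control cells and 47.4-fold in deficient cells. In edgeR's quasi-likelihood test the log2 fold change between the cultures was -7.14 (SE 0.24, adjusted p = 1.14e-09) in control and -5.61 (SE 0.22, adjusted p = 6.23e-09) in deficient cells. The levels with LPS-BAFF-TGFb rest on few reads. They came from 44, 2 and 5 counts in the controls, the first of them in the deepest library, and 13, 15 and 16 counts in the deficient libraries.

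The effect of Pdap1 loss on Tnfrsf8 was described in each culture. With LPS-IL-4 the group means were 87.4 ± 5.35 CPM (SD, n = 3) in control and 111.7 ± 17.8 CPM in deficient cells, a ratio of 1.28, and the fitted log2 fold change was 0.35 (SE 0.13). With LPS-BAFF-TGFb they were 0.517 ± 0.241 and 2.36 ± 0.651 CPM, a ratio of 4.56, and the fitted log2 fold change was 2.0 (SE 0.44). The difference between these effects in the fit over 12 libraries was 1.54 on the log2 scale, with an SE of 0.33. In absolute terms the order is the reverse, since the means differed by more CPM with LPS-IL-4. The fitted difference was 2.0 without control mouse 1, whose library with LPS-BAFF-TGFb was the deepest, and 1.19 without deficient mouse 2, in which Tnfrsf8 was the lowest of its group with LPS-IL-4 and the highest with LPS-BAFF-TGFb. It was 1.66 without both mice. The genotype by stimulation term called 0 of the 7 members and 0.0% of all 15794 genes in edgeR's quasi-likelihood test, with 755 genes at an unadjusted p under 0.05, a smallest adjusted p of 0.217, and 6 genes called by DESeq2.

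**Figure D3:**
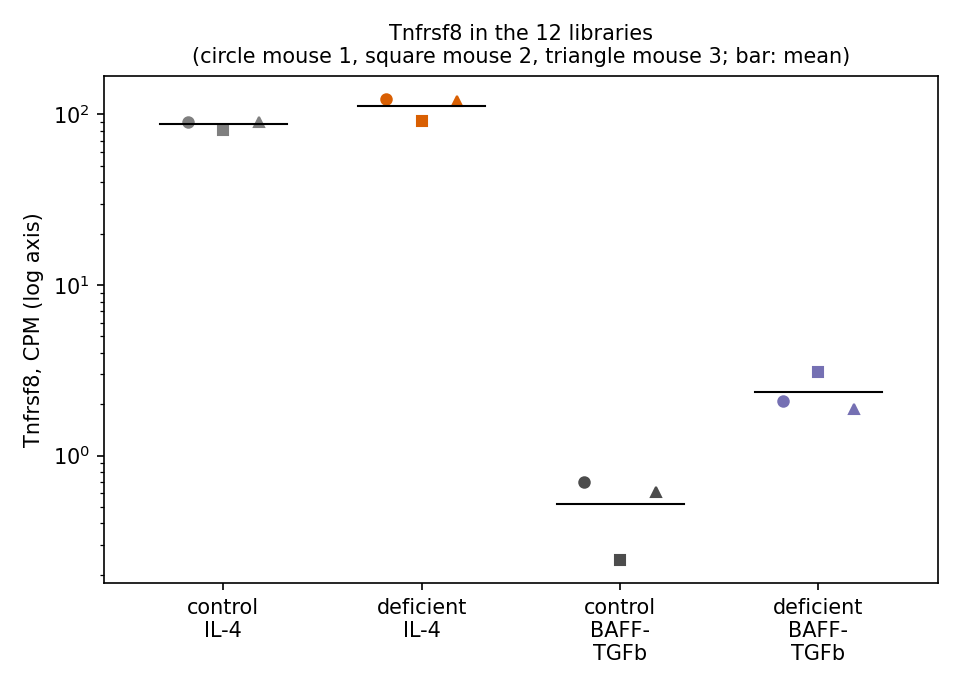
Tnfrsf8 in CPM on a log axis in each of the 12 libraries, by culture and genotype, with a symbol per mouse and a bar at the group mean. The LPS-IL-4 libraries sit between 81.2 and 123.4 CPM and the LPS-BAFF-TGFb libraries between 0.243 and 3.10, and in both cultures the 3 deficient libraries are above the 3 control libraries.

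The genes whose log2 CPM went most like that of Tnfrsf8 over the 12 libraries were Mfhas1 (Pearson's r = 0.994), St6gal1 (0.993), Nfil3 (0.988), Ckap4 (0.987) and Sept3 (0.986), out of 15794 genes compared. These r values share the libraries, their depth and the wide difference between the cultures, and are a description only. St6gal1, the sialyltransferase that makes the ligand of CD22, was at 191.1 to 203.5 CPM in control and 213.4 to 254.0 CPM in deficient libraries with LPS-IL-4, and at 52.7 to 55.4 and 73.5 to 79.1 CPM with LPS-BAFF-TGFb. Nfil3, a basic leucine zipper factor that IL-4 is known to induce in B cells, was at 169.1 to 193.6 CPM in all libraries with LPS-IL-4, and at 6.06 to 8.15 CPM in control and 9.68 to 17.3 CPM in deficient libraries with LPS-BAFF-TGFb. These genes were picked for going with Tnfrsf8 over the same libraries, so nothing is read from their genotype values either.

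Tnfrsf1b (ENSMUSG00000028599, chr4:145213463-145246870 on the minus strand), the TNF receptor without a death domain, is a neighbour of Tnfrsf8. In control cells it was at 60.2, 52.6 and 63.8 CPM with LPS-IL-4 and at 25.0, 20.6 and 22.2 CPM with LPS-BAFF-TGFb. In deficient cells it was at 66.1, 178.4 and 65.0 CPM with LPS-IL-4 and at 27.1, 120.6 and 35.1 CPM with LPS-BAFF-TGFb. Every mouse was lower with LPS-BAFF-TGFb, and deficient mouse 2 was far above all others in both cultures. In edgeR's quasi-likelihood test over the 12 libraries, whose spread takes in that mouse, the difference between the cultures was not called, at a log2 fold change of -1.38 (SE 0.60, adjusted p = 0.160) in control and -0.78 (SE 0.58, adjusted p = 0.497) in deficient cells. With the mouse as a block it was called in both, at -1.38 (adjusted p = 2.0e-05) and -0.90 (adjusted p = 0.000593), and without deficient mouse 2 at -1.38 (adjusted p = 9.88e-06) and -1.09 (adjusted p = 0.000588). The genotype comparison was not called in either culture, at 0.79 (SE 0.45, adjusted p = 0.363) with LPS-IL-4 and 1.43 (SE 0.65, adjusted p = 0.524) under LPS-BAFF-TGFb. Without deficient mouse 2 these log2 fold changes were 0.16 and 0.45. The mouse's summed myeloid markers are those given above, and Lyz2, a lysozyme of myeloid cells, was at 93.95 and 278.1 CPM in its libraries, 9.62 and 40.9 in those of deficient mouse 3 and 0.0778 to 5.60 in all others. The part of such cells in the level of Tnfrsf1b was not tested.

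**Figure D4:**
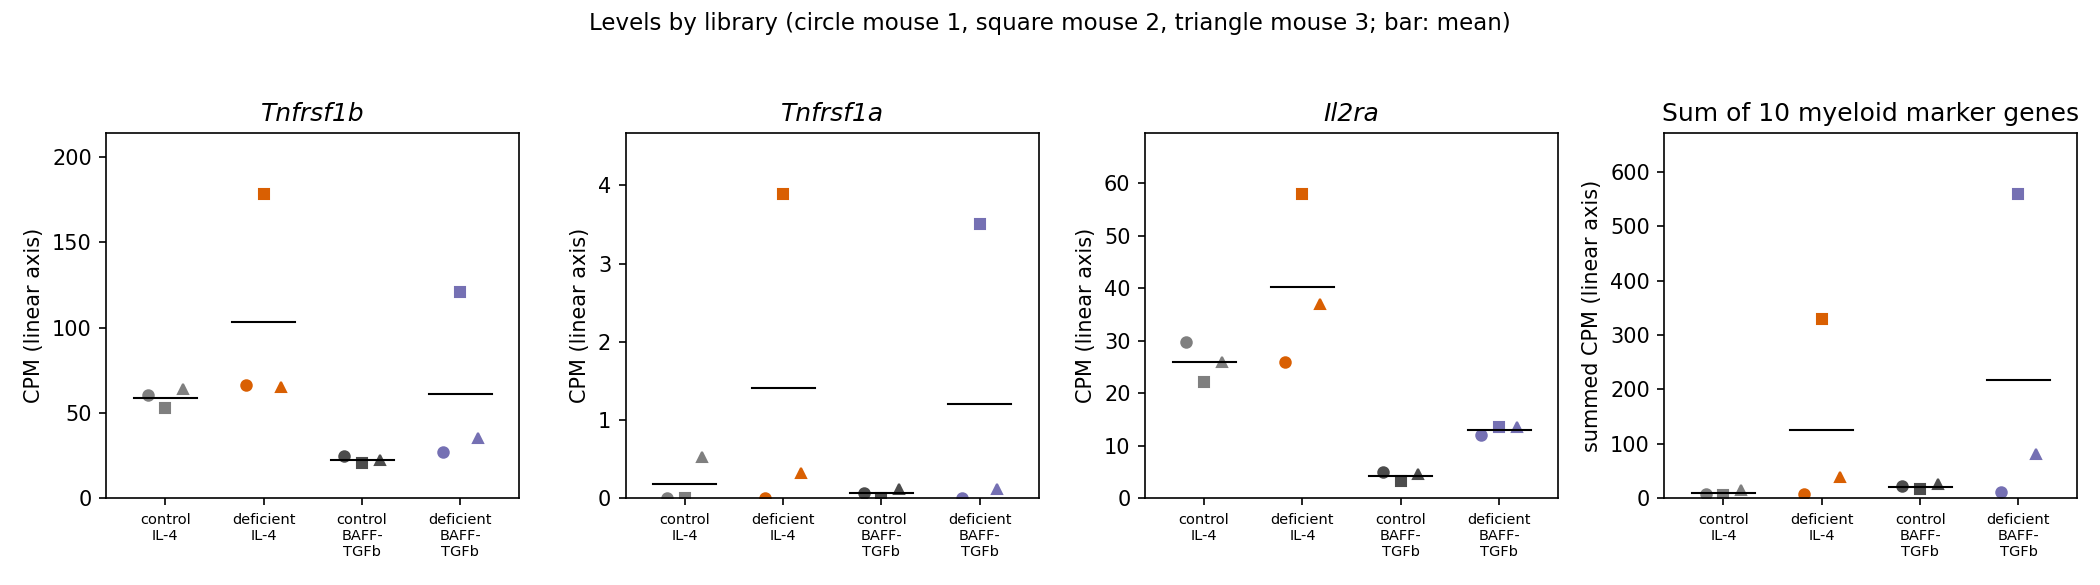
CPM of Tnfrsf1b, Tnfrsf1a and Il2ra beside the summed CPM of 10 myeloid marker genes in each of the 12 libraries, on linear axes from 0, with a symbol per mouse and a bar at the group mean. The square of Pdap1-deficient mouse 2 stands apart for Tnfrsf1b (178.4 and 120.6 CPM), for Tnfrsf1a (3.89 and 3.51 CPM) and for the markers, whereas Il2ra with LPS-BAFF-TGFb lies within 12.1 to 13.6 CPM in all 3 deficient mice.

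Tnfrsf1a and Tnfrsf9 had few counts in most libraries. Tnfrsf1a (ENSMUSG00000030341, chr6:125349362-125362484 on the plus strand), the TNF receptor with a death domain, was at 3.89 CPM with LPS-IL-4 and 3.51 CPM under LPS-BAFF-TGFb in deficient mouse 2, from 64 and 17 counts. In the other 10 libraries it lay between 0 and 0.526 CPM. Tnfrsf9 (ENSMUSG00000028965, chr4:150914562-150946102 on the plus strand), the costimulatory receptor 4-1BB, was at 1.58 CPM (26 counts) in deficient mouse 2 with LPS-IL-4 and between 0 and 0.586 CPM in the other 11 libraries. A count of 3, taken as the floor, stood for 0.0477 to 0.619 CPM, depending on the depth of the library. Neither gene passed the filter on low counts, so no difference between the groups was tested with it. Without the filter edgeR's quasi-likelihood test called neither, at adjusted p of 0.607 for Tnfrsf1a and 0.310 for Tnfrsf9 between the genotypes with LPS-IL-4 and 0.304 and 0.873 under LPS-BAFF-TGFb. Tnfrsf9 overlaps Camta1 on the opposite strand, and the strand setting of the counting is not given in the sources used here.

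Fas (ENSMUSG00000024778, chr19:34290666-34327772 on the plus strand), the death receptor that limits activated B cells, was the only one of the 7 tested members that was higher with LPS-BAFF-TGFb. With LPS-IL-4 it was at 10.2, 8.54 and 9.81 CPM in control and 6.69, 11.98 and 8.78 CPM in deficient cells. With LPS-BAFF-TGFb it was at 28.0, 27.3 and 20.9 CPM in control and 22.1, 22.5 and 22.4 CPM in deficient cells. The cultures did not overlap in either genotype. The log2 fold change was 1.42 (SE 0.19, adjusted p = 0.000146) in control and 1.28 (SE 0.20, adjusted p = 0.00049) in deficient cells by edgeR's quasi-likelihood test. The genotypes overlapped in both cultures, with log2 fold changes of -0.067 (95% interval -0.53 to 0.40, adjusted p = 0.881) and -0.18 (95% interval -0.53 to 0.17, adjusted p = 0.666). The first of these values turned to 0.11 without deficient mouse 1.

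Cd70 (ENSMUSG00000019489, chr17:57145997-57149777 on the minus strand), the ligand of CD27, was counted in 1 group. Control cells with LPS-BAFF-TGFb had 21, 2 and 4 counts, which is 0.334, 0.243 and 0.487 CPM, and the other 9 libraries had none. The first of these libraries is the deepest of the series. In the deficient libraries of the same culture a floor of 3 counts stands for 0.484, 0.619 and 0.352 CPM, above the levels of control mice 1 and 2, so a difference between the genotypes was not detectable at this depth in single libraries. Cd27, the receptor, was at 0.39 to 3.04 CPM over the 12 libraries.

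Il2ra (ENSMUSG00000026770, chr2:11642807-11693193 on the plus strand) was lower with LPS-BAFF-TGFb in both genotypes, and in that culture it was higher in the deficient cells. In control cells it was at 29.7, 22.0 and 25.9 CPM with LPS-IL-4 and at 4.93, 3.28 and 4.63 CPM with LPS-BAFF-TGFb. In deficient cells it was at 25.9, 58.0 and 36.9 CPM with LPS-IL-4 and at 12.1, 13.6 and 13.5 CPM with LPS-BAFF-TGFb. The cultures did not overlap in either genotype, and the genotypes overlapped with LPS-IL-4 but not with LPS-BAFF-TGFb. Between the cultures the log2 fold change was -2.56 (SE 0.26, adjusted p = 1.3e-05) in control and -1.63 (SE 0.25, adjusted p = 0.000627) in deficient cells by edgeR's quasi-likelihood test. Between the genotypes it was 1.60 (SE 0.22, adjusted p = 0.0148), 3.03-fold, with LPS-BAFF-TGFb and 0.62 (SE 0.27, adjusted p = 0.218) with LPS-IL-4. The difference between these genotype effects was 0.94 (SE 0.36) and was not called (adjusted p = 0.983). On simulated data the genotype by stimulation term recovered 19.5% of genes changed 2-fold. A term not called, here or for the members below, therefore does not show that the effects were alike.

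The call of Il2ra with LPS-BAFF-TGFb was lost when a mouse was left out in 4 of 6 cases, at an adjusted p of 0.106 without control mouse 3 and 0.0797, 0.0913 and 0.129 without deficient mouse 1, 2 or 3, while the log2 fold change stayed between 1.45 and 1.72. Deficient mouse 1 had 12.1 CPM of Il2ra there and a myeloid sum of 11.8 CPM, and the controls had 16.7 to 25.4 CPM of these markers. The part of such cells in the level of Il2ra was not tested. Among the mice with Xist, Il2ra with LPS-BAFF-TGFb was at 4.93 and 4.63 CPM in the controls and 12.1 CPM in the deficient mouse, and among those with Ddx3y at 3.28 CPM in the control and 13.6 and 13.5 CPM in the deficient mice. With LPS-IL-4 Il2ra was highest in deficient mouse 2. The log2 fold change there was 0.27 without that mouse, and 0.85 without deficient mouse 1, where it was called (adjusted p = 0.0258). Of the partner chains of the IL-2 receptor, Il2rb was lower with LPS-BAFF-TGFb, at a log2 fold change of -2.38 (SE 0.64, adjusted p = 0.0231) in control and -2.63 (SE 0.69, adjusted p = 0.0248) in deficient cells. It was at 2.02 to 10.5 CPM with LPS-IL-4, highest in deficient mouse 2. With LPS-BAFF-TGFb it rested on 54, 2 and 9 counts in control and 3, 8 and 7 counts in deficient libraries. Il2rg, the common gamma chain, was at 13.0 to 31.2 CPM over the 12 libraries, and neither comparison of the cultures was called, at 0.32 (adjusted p = 0.424) and 0.02 (adjusted p = 0.973).

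Cd69 (ENSMUSG00000030156, chr6:129267325-129275436 on the minus strand) was higher in the deficient cells with LPS-IL-4. It was at 239.1, 227.3 and 230.6 CPM in control and 347.6, 323.1 and 412.2 CPM in deficient cells with LPS-IL-4, and at 88.9, 122.8 and 137.2 CPM in control and 162.4, 167.9 and 157.9 CPM in deficient cells with LPS-BAFF-TGFb. The genotypes did not overlap in either culture, nor did the cultures in either genotype. The genotype log2 fold change was 0.63 (SE 0.12, adjusted p = 0.0176), 1.54-fold, with LPS-IL-4 and 0.49 (SE 0.16, adjusted p = 0.344) under LPS-BAFF-TGFb by edgeR's quasi-likelihood test, and the difference of -0.15 (SE 0.20) between these effects was not called (adjusted p = 0.989). The call with LPS-IL-4 was lost without control mouse 1, 2 or 3 (adjusted p = 0.107, 0.132 and 0.127) and without deficient mouse 3 (0.0786), with log2 fold changes from 0.51 to 0.71 over all 6 cases. Without deficient mouse 2 it was 0.71 (adjusted p = 5.6e-05). Among the mice with Xist, Cd69 with LPS-IL-4 was at 239.1 and 230.6 CPM in the controls and 347.6 CPM in the deficient mouse, and among those with Ddx3y at 227.3 CPM in the control and 323.1 and 412.2 CPM in the deficient mice. The summed plasma cell markers, which did not overlap between the genotypes in this culture either, are given above with the markers that went otherwise. The part of plasma cells in the level of Cd69 was not tested. Between the cultures Cd69 fell by 1.0 on the log2 scale (SE 0.14, adjusted p = 0.000181) in control and by 1.15 (SE 0.14, adjusted p = 6.84e-05) in deficient cells. S1pr1, the lipid receptor that Cd69 binds, was also higher in deficient cells with LPS-IL-4, at 22.2 to 27.8 CPM in control and 32.7 to 52.8 CPM in deficient libraries (log2 fold change 0.82, SE 0.16, adjusted p = 0.0234, and 0.67, adjusted p = 0.0097, without deficient mouse 2).

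Cd83 (ENSMUSG00000015396, chr13:43784775-43803132 on the plus strand) differed between the cultures and little between the genotypes. With LPS-IL-4 it was at 633.8, 668.3 and 629.5 CPM in control and 616.0, 598.7 and 612.7 CPM in deficient cells. With LPS-BAFF-TGFb it was at 326.7, 315.2 and 302.0 CPM in control and 340.8, 338.4 and 334.7 CPM in deficient cells. All 3 deficient libraries lay below the controls in the first culture and above them in the second. The genotype log2 fold changes were small and not called, at -0.09 (SE 0.10, adjusted p = 0.629) and 0.11 (SE 0.10, adjusted p = 0.686), with 95% intervals from -0.31 to 0.13 and from -0.12 to 0.34. Their difference of 0.18 (SE 0.12) was not called either (adjusted p = 0.983). Between the cultures Cd83 fell by 1.03 on the log2 scale (SE 0.08, adjusted p = 1.04e-06) in control and by 0.85 (SE 0.08, adjusted p = 8.88e-06) in deficient cells.

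Cd44 (ENSMUSG00000005087, chr2:102811141-102901665 on the minus strand) differed least between the cultures among the 7 tested members. It was at 405.8, 367.0 and 355.7 CPM in control and 327.2, 353.5 and 311.6 CPM in deficient cells with LPS-IL-4, and at 320.8, 322.6 and 319.3 CPM in control and 302.9, 320.8 and 243.6 CPM in deficient cells with LPS-BAFF-TGFb. The genotypes did not overlap with LPS-IL-4 and overlapped with LPS-BAFF-TGFb. No comparison called it. The genotype log2 fold changes were -0.20 (SE 0.10, adjusted p = 0.275) and -0.14 (SE 0.13, adjusted p = 0.675), and those between the cultures -0.23 (SE 0.11, adjusted p = 0.174) in control and -0.20 (SE 0.11, adjusted p = 0.311) in deficient cells.

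Over the tested members the genotype comparison called 1 of 7 in each culture, higher in the deficient cells both times. With LPS-IL-4 this was Cd69, beside 2.79% of all 15074 genes called higher, 2.12% lower and 4.92% in either direction. With LPS-BAFF-TGFb it was Il2ra, beside 0.455% of all 14079 genes called higher, 0.0071% lower and 0.462% in either direction. The median log2 fold change of the 7 was 0.35 with LPS-IL-4 and 0.49 under LPS-BAFF-TGFb, beside 0.02 and 0.007 over all genes. As the members were selected on earlier results of these data, nothing is read from these counts and medians.

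**Figure D5:**
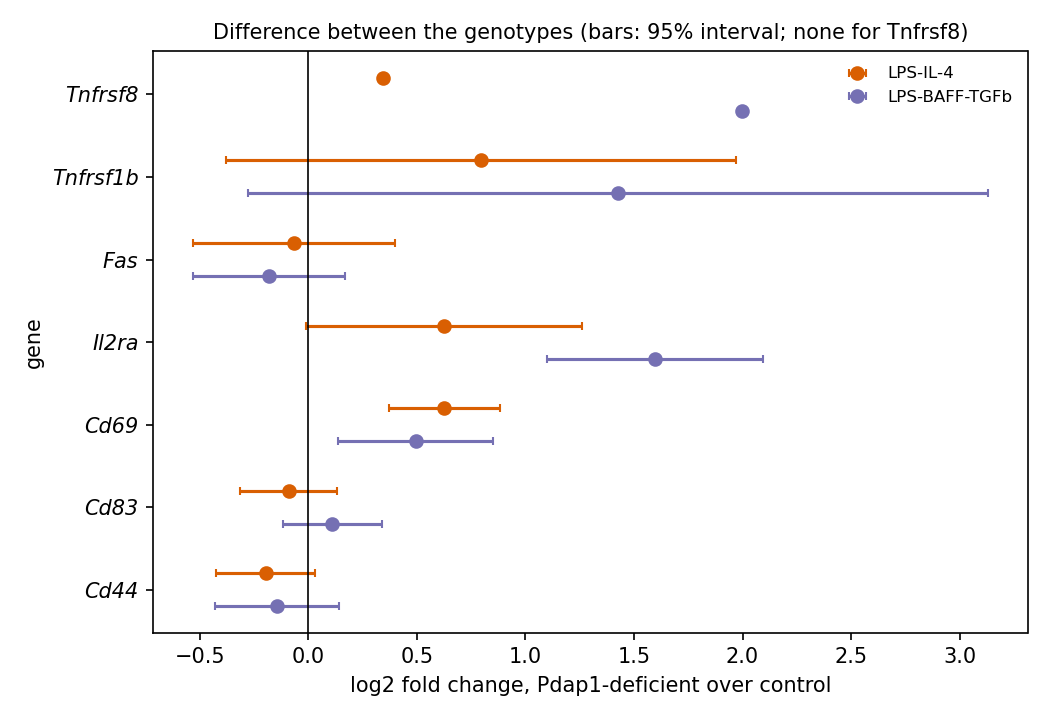
Log2 fold change of the 7 tested members, Pdap1-deficient over control, in each culture, from the fit of the 6 libraries of that culture, with 95% intervals as bars except for Tnfrsf8, whose values (0.35 and 2.0) are a description. The intervals are not adjusted for the number of genes. Those of Cd69 lie above 0 in both cultures, but Cd69 was called with LPS-IL-4 only. That of Il2ra lies above 0 with LPS-BAFF-TGFb (1.10 to 2.10), and those of Tnfrsf1b are the widest.

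The other genes of the pathway were counted in 5 lists, with the same backgrounds. Of 23 other TNF receptor superfamily genes, Cd40, the receptor for T cell help, was the only one called between the genotypes. It fell by 0.47 on the log2 scale (SE 0.11, adjusted p = 0.0372) in deficient cells with LPS-IL-4, among 12 tested, and none of 13 tested was called with LPS-BAFF-TGFb. Between the cultures 3 were higher and 2 lower with LPS-BAFF-TGFb in control cells and 3 higher and 1 lower in deficient cells, of 14 tested. Tnfrsf10b, the mouse TRAIL death receptor, was higher at a log2 fold change of 1.06 (SE 0.15, adjusted p = 0.000165) in control and 0.91 (SE 0.15, adjusted p = 0.000881) in deficient cells, and Tnfrsf13b (TACI), a receptor for BAFF and APRIL, at 0.68 (SE 0.10, adjusted p = 0.000294) and 0.57 (SE 0.10, adjusted p = 0.00159). Relt was lower, at -1.24 (SE 0.19, adjusted p = 0.000425) and -0.75 (SE 0.20, adjusted p = 0.0206), and Tnfrsf21 (DR6) was lower in control cells, at -0.64 (SE 0.19, adjusted p = 0.0315).

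Of 16 ligands of the TNF superfamily, 8 were tested with LPS-IL-4 and 6 under LPS-BAFF-TGFb, and no genotype comparison called one. Between the cultures 1 was higher and 3 lower with LPS-BAFF-TGFb in control cells, and 1 higher and 2 lower in deficient cells, of 8 tested. Ltb, a subunit of the membrane lymphotoxin, was higher at a log2 fold change of 2.30 (SE 0.35, adjusted p = 0.00112) in control and 2.32 (SE 0.36, adjusted p = 0.00154) in deficient cells. In control mice 1 to 3 it was at 129.0, 44.8 and 48.2 CPM with LPS-BAFF-TGFb, so the value in control cells leans on mouse 1. With LPS-IL-4 the controls were at 14.2 to 16.5 CPM. Tnfsf11 (RANKL) was lower at -1.74 (SE 0.41, adjusted p = 0.0081) in control and -1.90 (SE 0.45, adjusted p = 0.0121) in deficient cells. Tnfsf14 (LIGHT) was lower in control cells at -3.41 (SE 0.69, adjusted p = 0.00315), and Tnf in deficient cells at -0.85 (SE 0.25, adjusted p = 0.0428). Tnf also lay lower in control cells, at 45.0 to 48.4 CPM with LPS-IL-4 and 20.8 to 21.3 CPM with LPS-BAFF-TGFb. Tnfsf14 in deficient cells was near the floor, at 0.317 to 0.851 and 0 to 0.234 CPM. The ligand of CD30, Tnfsf8, was at 1.17 to 8.88 CPM over the 12 libraries, highest in deficient mouse 2 with LPS-IL-4, and was called in no comparison.

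Of 15 adaptors and death signalling genes 14 were tested. Traf4, a TRAF family adaptor, fell by 0.68 on the log2 scale (SE 0.11, adjusted p = 0.00892) in deficient cells with LPS-IL-4, from 40.3 to 46.7 CPM in control to 25.6 to 29.0 CPM in deficient libraries, and was the only one called between the genotypes in either culture. Between the cultures 4 were lower with LPS-BAFF-TGFb in control and 3 in deficient cells, and none was higher. Cflar, the caspase-8 inhibitor that restrains death receptors, was lower at -0.66 (SE 0.09, adjusted p = 0.000205) in control and -0.56 (SE 0.09, adjusted p = 0.00109) in deficient cells. Birc3, a ubiquitin ligase of TNF receptor complexes, was lower in control cells at -0.40 (SE 0.13, adjusted p = 0.0447), and Ripk1, a kinase of the same complexes, in deficient cells at -0.53 (SE 0.09, adjusted p = 0.00159). Both also lay lower in the other genotype. Birc3 was at 330.4 to 370.9 CPM with LPS-IL-4 and 271.9 to 307.0 CPM with LPS-BAFF-TGFb in deficient cells. In control cells Ripk1 was at 72.1 to 76.5 and 56.6 to 65.0 CPM.

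All 13 NF-kB subunits and inhibitors were tested and none was called between the genotypes. Between the cultures 5 were higher and 3 lower with LPS-BAFF-TGFb in each genotype. Nfkb1, which encodes the p105 and p50 proteins, was lower at -1.42 (SE 0.10, adjusted p = 2.63e-07) in control and -0.99 (SE 0.10, adjusted p = 9.96e-06) in deficient cells, and Nfkbid, a nuclear IkB protein, at -0.58 (SE 0.14, adjusted p = 0.00935) and -0.54 (SE 0.14, adjusted p = 0.0208). Nfkbia, the classical NF-kB inhibitor, was higher at 1.26 (SE 0.13, adjusted p = 9.83e-06) and 0.93 (SE 0.13, adjusted p = 0.000211), and Nfkbiz, another nuclear IkB protein, at 1.65 (SE 0.13, adjusted p = 8.4e-07) and 1.42 (SE 0.13, adjusted p = 4.81e-06).

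Of 21 receptor partners and other activation markers, 3 were higher and 1 lower in deficient cells with LPS-IL-4 (19 tested), and 1 was higher with LPS-BAFF-TGFb (18 tested). Besides S1pr1, Slc3a2 (CD98 heavy chain), a partner of amino acid transporters, was higher with LPS-IL-4, at 133.2 to 150.6 CPM in control and 226.7 to 251.1 CPM in deficient libraries (log2 fold change 0.76, SE 0.10, adjusted p = 0.00363), and with LPS-BAFF-TGFb, at 96.1 to 102.8 and 166.0 to 187.1 CPM (0.85, SE 0.10, adjusted p = 0.00804). The latter call was lost without deficient mouse 2, at 0.81 (adjusted p = 0.0571). Cd38, an ectoenzyme that degrades NAD, was higher with LPS-IL-4 at 1.16 (SE 0.19, adjusted p = 0.0124), and was highest in deficient mouse 2, at 76.5 CPM. Without that mouse it was 0.89 (adjusted p = 0.000215). Fcer2a (CD23), the low-affinity IgE receptor, was lower there, at 390.3 to 435.7 CPM in control and 203.7 to 237.3 CPM in deficient libraries (-0.92, SE 0.11, adjusted p = 0.00214). For genes of the 5 lists no genotype values without other mice are given here. Over all genes, the 741 calls with LPS-IL-4 became 1459 without deficient mouse 2 and 69 to 91 without a control mouse. Between the cultures 3 of the 21 listed genes were higher and 9 lower with LPS-BAFF-TGFb in control cells, and 3 higher and 7 lower in deficient cells, of 19 tested. Il4ra, the receptor chain for IL-4, was lower at -3.32 (SE 0.16, adjusted p = 1.19e-08) in control and -2.91 (SE 0.15, adjusted p = 4.51e-08) in deficient cells, and S1pr1 in deficient cells at -2.63 (SE 0.39, adjusted p = 0.00091). Cd72, an inhibitory B cell coreceptor, was higher at 2.62 (SE 0.14, adjusted p = 2.59e-08) and 2.41 (SE 0.14, adjusted p = 7.6e-08), Cd80, a costimulatory ligand of CD28, in control cells at 1.91 (SE 0.23, adjusted p = 5.44e-05), and Cd24a, a glycosylphosphatidylinositol-anchored B cell marker, in deficient cells at 1.13 (SE 0.11, adjusted p = 1.19e-05). These p-values are those of edgeR's quasi-likelihood test. At most 2 called genes at either end were named per genotype, and those named for one genotype moved the same way in the other. In control cells S1pr1 was at 22.2 to 27.8 CPM with LPS-IL-4 and 5.11 to 8.65 CPM with LPS-BAFF-TGFb. Cd24a was at 123.8 to 134.6 and 345.0 to 383.7 CPM there. In deficient cells Cd80 was at 5.60 to 11.7 and 14.2 to 19.4 CPM.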

How the data were processed

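The authors deposited raw counts per Ensembl gene, made with Trim Galore 0.6.1, STAR 2.6 and HTSeq 0.9.1 on GRCm38. The annotation release and the strand setting are not given in the sources used here, and the labels and the study name different RNA kits. A second, normalized table was not used. Genes were named with GENCODE M21. CPM used TMM-scaled totals, and log2 CPM a prior count of 2. edgeR 4.0.16 (R 4.3.3) was fitted after filterByExpr with the robust quasi-likelihood F test, calling genes at a Benjamini-Hochberg adjusted p under 0.05. Genotypes were compared in the 6 libraries of a culture, and cultures and the genotype by stimulation term in all 12. The description of the series gives the same mice for both cultures, and a mouse's deviations from its group means correlated at -0.18 to 0.62 between them over 15794 genes. The p-values cover the spread between 3 mice, and floors (3 counts) counting error only. Median biological coefficients of variation were between 17.2% and 20.9%. Fits were tested on simulated data with 200 genes changed 2-fold. The genotype fit recovered 51.0% of them with LPS-IL-4, with 15 other genes called, and 38.0% with LPS-BAFF-TGFb, with 13 others. The comparison of cultures in control cells recovered 45.5% with 4 others, and the genotype by stimulation term 19.5% with 2 others. A gene not called may thus still differ, and a gene called may not. Members and lists were chosen with earlier results of these data known. Named were the members, Pdap1, the 5 genes most like Tnfrsf8, list genes called between the genotypes and, per list and comparison of cultures, up to 2 called at either end. Il2rg, Cd27, Tnfsf8, Il2rb in deficient cells, Lyz2, Thy1, Xist, Ddx3y and the single plasma and dendritic cell markers were named as partners or markers after their values were seen. Alternatives were DESeq2 1.42.0, its size factors, no filter, thinned libraries, the replicate block, other sets of libraries and each mouse left out. The full name of the Cre allele is not reported here.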

Additional observations from a re-analysis of the deposited data

How the results depend on the processing

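Of 435 values for single members under an alternative, 409 kept their direction and their side of the threshold, 8 were no longer called, 12 became called and 6 changed sign. With one mouse left out in turn, the members called between the genotypes ranged from 0 to 2 with LPS-IL-4 and from 0 to 1 with LPS-BAFF-TGFb, which leaves 2 mice in an arm. With control mouse 1 and Pdap1-deficient mouse 2 left out, an alternative added after seeing the data, the count with LPS-IL-4 was 2, Cd69 and Tnfrsf8. With LPS-BAFF-TGFb it was 2 without the filter on low counts and in a fit of all 12 libraries, Il2ra and Tnfrsf8. Tnfrsf8 was singled out for its genotype values, so nothing is read from its place in these counts. The number of all genes called with LPS-IL-4 without both mice is not given here, so nothing is read from that count of members. The values that changed sign were all near 0 and not called. They were Fas with LPS-IL-4 (from -0.31 to 0.11 with one mouse left out) and the genotype by stimulation terms of Cd44 (from -0.022 to 0.10, and -0.068 with both mice left out) and Fas (from -0.28 to 0.11, and 0.13 with both mice left out).

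The replicate block, with the mouse as the block for the cultures, also called Tnfrsf1b in control and in deficient cells, and changed no other call of a member. For the genotypes the same number names different mice, whose deviations correlated at -0.21 to 0.10, and the block with that number called 1 member in each culture. Over all genes, 741 calls with LPS-IL-4 stood against 1229 with DESeq2, 1694 without the filter and 69 to 1759 with a mouse left out, and 65 with LPS-BAFF-TGFb against 174, 257 and 19 to 116, 133 in a fit of all 12 libraries and 156 without both mice. Between the cultures, 2868 in control cells stood against 1532 to 3465 with a mouse left out, and 2144 in deficient cells against 1049 to 2290. The genotype by stimulation term called 1 gene without the filter and 6 with DESeq2. Depth limits Tnfrsf8 with LPS-BAFF-TGFb (2 to 44 counts in a control library), Tnfrsf9, Tnfrsf1a and Cd70. Without the filter Cd70 was called as well between the cultures in control cells, from 27 counts over the 3 libraries with LPS-BAFF-TGFb.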
